A study of Mus musculus with 6 samples.

Results

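Immediate early genes are transcribed within minutes of a stimulus, from signalling proteins that are already present in the cell. Growth factor, stress and cytokine receptors act through MAP kinases and cyclic AMP kinases on factors bound to serum response elements (the CArG box) and cyclic AMP response elements (CRE) of these genes. Many of the products are transcription factors, among them the AP-1 proteins, which bind DNA as Fos and Jun dimers, and the Egr zinc finger proteins. Others, such as the phosphatase Dusp1, switch the signal off again. The transcripts are short-lived, and in lung they are known from epithelial, endothelial and immune cells alike.

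The 10 genes described here are Fos, Fosb, Jun, Junb, Egr1, Egr2, Egr3, Atf3, Dusp1 and Ier2, taken as every probe set of the array whose gene symbol was one of these names. They were read by 13 of the 45037 probe sets in the table, with Jun, Egr2 and Egr3 read by a pair of probe sets each. One set of lungs came from CC10-rtTA-IL13 transgenic mice (TG, 2 arrays): doxycycline lets the activator rtTA switch on IL13, the type 2 cytokine of allergic airway disease, and since rtTA is under the CC10 promoter this happens in club cells of the airway. Wild-type lungs (WT, 4 arrays) were their controls. All animals were C57BL/6 mice of 6 to 10 weeks, and both genotypes drank doxycycline at 2 mg/mL for 7 days before RNA of the left upper lobe was hybridised to Affymetrix arrays, 1 lung an array. The labels call the arrays biological replicates, and the 2 TG arrays limit the precision of every difference. An exact permutation test over the 15 ways to draw 2 of 6 arrays cannot give a two-sided p below 0.133, so the tests rest on limma, fitted over all probe sets.

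Values are log2 RMA values, on which a step of 1 is a doubling of signal, and the arrays ran from 2.30 to 15.19 with medians of 5.28 to 5.31. Across all probe sets the TG arrays correlated at r = 0.992 with each other, the WT arrays at 0.987 to 0.994 among themselves, and arrays of the 2 genotypes at 0.973 to 0.979. The probe set of Il13 read near the floor at 4.24 and 4.09 in TG lungs, against 3.84, 3.72, 4.03 and 3.79 in WT lungs (limma adjusted p = 0.11 over genes), so it gives little check of the labels. Where it lies relative to the transgene was not given in the sources used here. Macrophage markers moved with the genotype: 9 of 10 were higher in TG lungs, and their mean level was 10.58 and 10.59 in TG lungs and 7.74 to 7.94 in WT lungs. Markers of smooth muscle were lower for 5 of 6 genes (mean level 7.56 and 7.73 in TG lungs, 8.27 to 8.93 in WT lungs) and of endothelium for 3 of 8 (8.83 and 8.92 in TG, 9.17 to 9.94 in WT). Markers of club cells were lower for 4 of 5 genes (12.33 and 12.82 in TG, 13.85 to 14.18 in WT) and of alveolar type I cells for 4 of 6 (11.82 and 11.96 in TG, 12.36 to 12.52 in WT). The club cell marker Scgb1a1 did not pass (difference -0.19, limma adjusted p = 0.40 over genes). At a limma adjusted p under 0.05, as used for these counts, 8.43% of all genes were higher and 10.5% lower. Adipocyte markers, 2 of 4 lower, read 7.04 and 4.61 in TG lungs and 8.43, 7.43, 8.19 and 9.70 in WT lungs, so that single lungs differed widely. Heart muscle markers differed between single lungs, at 7.05 and 4.98 in TG lungs and 8.46, 7.76, 8.205 and 9.96 in WT lungs, and 4 of 7 were lower. In whole lung, fewer cells of a type and less RNA per cell cannot be told apart, and the part of these shifts in the differences below was not tested.

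WT replicate 3 stood apart from the other WT lungs in these genes. It was the highest of the 4 WT arrays in 12 of the 13 probe sets, where it was the highest in 22.3% of all probe sets. In 10 of the 13 it lay at least 1 log2 unit above every other WT array, which was the case for 63 of all 45037 probe sets (0.14%). In 5 of the 13 its gap to the next WT lung, over the range of the 4, exceeded Dixon's 95% critical value (0.591% of all, with 0.608%, 0.697% and 0.773% for WT replicates 1, 2 and 4). For a gap of at least 1 log2 unit the shares were 0.00444% for WT replicate 1, 0.142% for WT replicate 2 and 0.164% for WT replicate 4, so the share of WT replicate 3 was close to those of WT replicates 2 and 4 and above that of WT replicate 1. Neither the labels nor the deposited tables give a harvest time, a scan date or a batch, and what sets this lung apart was not tested. The genotype difference of each member probe set is therefore given with and without WT replicate 3, and of other gene lists the counts are. The plot of single lungs shows its position in each panel.

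**Figure D1:**
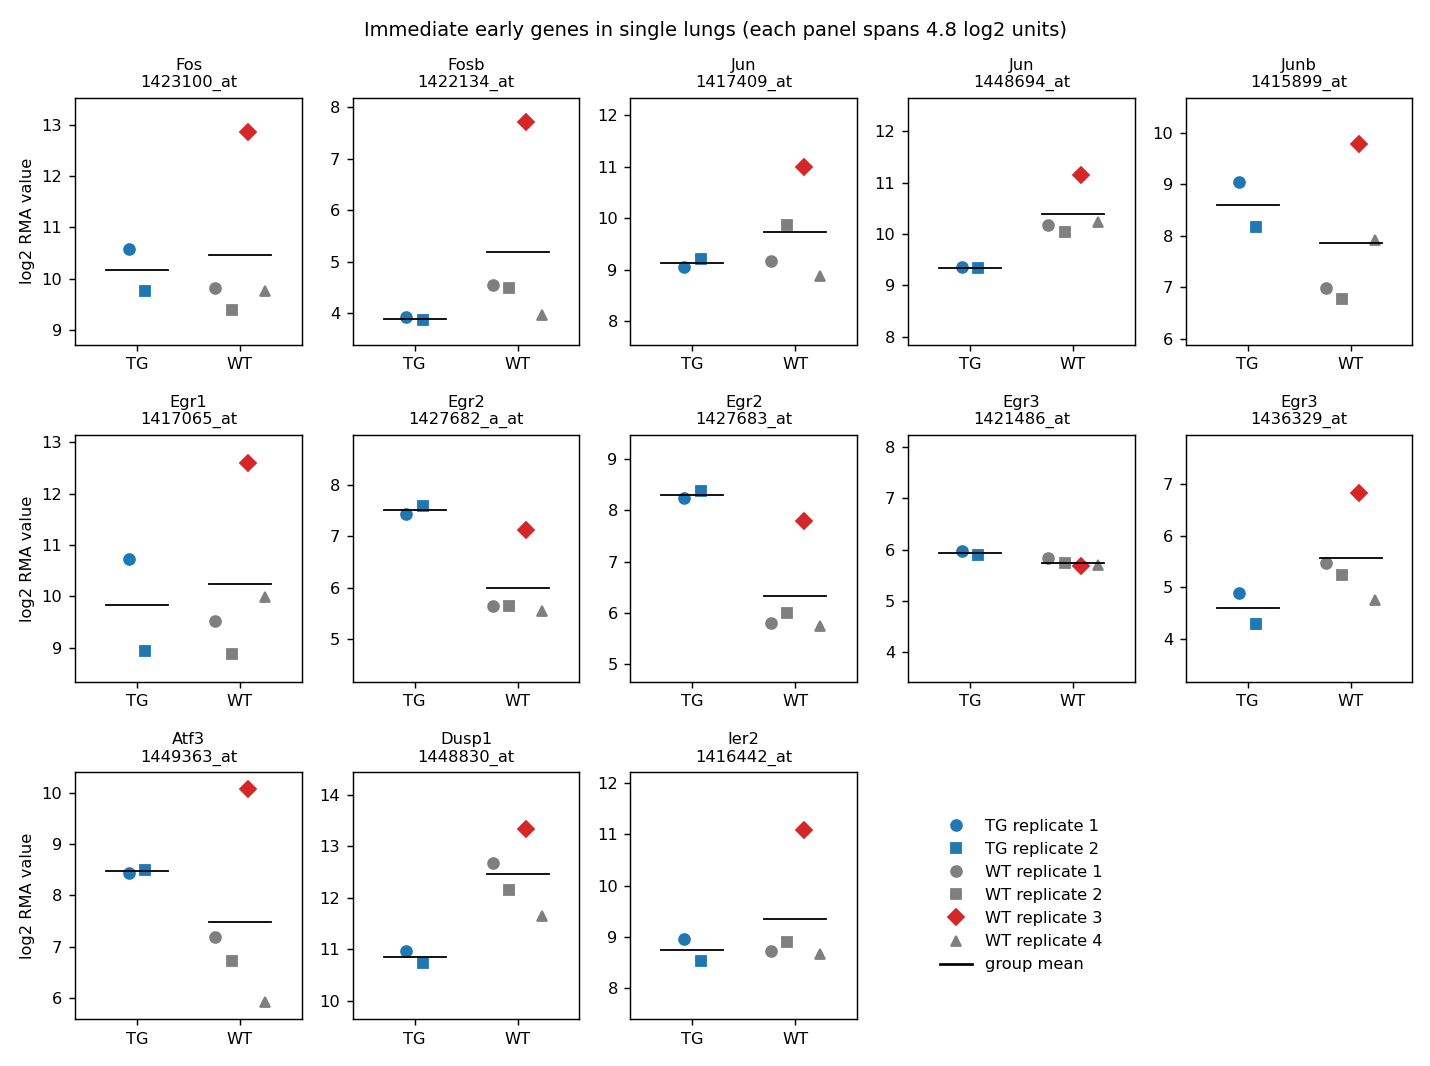
Log2 RMA values of the 13 probe sets in each lung, TG on the left (blue) and WT on the right (grey, with WT replicate 3 in red); lines are group means. WT replicate 3 is the highest of the 4 WT lungs in 12 of 13 panels and the highest of all 6 lungs in 10.

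Promoters are shown for 5 members, picked by hand, with any match to elements through which this class of genes is known to be switched on. RefSeq windows of GRCm38.p6 were matched for 7 of the 10 genes. Egr1, on a chromosome left out of the search, and Egr3 and Ier2, for which no window was given, were not searched. Each line gives the 200 bases before an annotated start, on the strand of the gene, with every half-site of a cyclic AMP response element (TGACG, on either strand) and every CArG box in capitals.
Fos (chr12:85473690-85473889, plus strand): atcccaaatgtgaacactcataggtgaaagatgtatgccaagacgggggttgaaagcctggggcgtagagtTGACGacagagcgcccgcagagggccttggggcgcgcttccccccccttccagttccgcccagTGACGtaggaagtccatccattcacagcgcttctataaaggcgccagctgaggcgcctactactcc
Junb (chr8:84978749-84978948, minus strand): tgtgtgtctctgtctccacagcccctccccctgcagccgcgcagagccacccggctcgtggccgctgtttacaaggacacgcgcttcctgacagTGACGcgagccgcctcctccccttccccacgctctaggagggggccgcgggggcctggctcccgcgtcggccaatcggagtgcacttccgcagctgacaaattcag
Egr2 (chr10:67537669-67537868, plus strand): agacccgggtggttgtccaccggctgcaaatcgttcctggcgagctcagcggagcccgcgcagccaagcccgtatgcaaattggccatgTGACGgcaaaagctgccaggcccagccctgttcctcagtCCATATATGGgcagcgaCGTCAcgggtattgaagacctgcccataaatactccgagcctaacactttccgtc
Atf3 (chr1:191183334-191183533, minus strand): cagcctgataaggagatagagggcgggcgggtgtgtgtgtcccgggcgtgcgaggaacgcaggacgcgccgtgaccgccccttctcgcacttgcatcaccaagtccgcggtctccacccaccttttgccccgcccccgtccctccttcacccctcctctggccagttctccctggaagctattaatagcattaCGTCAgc
Dusp1 (chr17:26508473-26508672, minus strand): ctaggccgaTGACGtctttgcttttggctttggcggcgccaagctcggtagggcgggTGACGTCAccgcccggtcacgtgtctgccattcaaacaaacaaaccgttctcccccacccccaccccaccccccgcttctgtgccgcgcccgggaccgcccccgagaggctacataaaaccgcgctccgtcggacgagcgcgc

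In the 250 bases before the start, 6 of the 7 matched genes held a TGACG half-site, where 19.8% of all 27025 genes with a window did. Fos held it with its first base at -129 and at -66, counted from the start. Dusp1 was the only one of the 7 with the full palindrome TGACGTCA, which contains the half-site on both strands and was found for 1.77% of all genes. Egr2, which has 5 annotated windows, was the only one of the 7 with a CArG box in this stretch (1.62% of all genes). Since Egr1 was not searched, this does not cover it. The first Egr2 window with both elements is printed. The AP-1 site TGANTCA was in none of the 7 (7.82% of all genes). Jun, which is not printed, held none of the elements searched. A match is a description of the letters only, and elements farther upstream lie outside these windows.

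In the comparison of genotypes, which asks what 7 days of airway IL13 change, Egr2 was higher and Dusp1 and Jun were lower in TG lungs. Among the 13 probe sets, 2 were higher (both of Egr2) and 2 lower (Dusp1 and 1 of Jun) at a Benjamini-Hochberg adjusted p under 0.05 in limma. Of all probe sets 5.39% were higher and 5.99% lower by the same rule. Both TG values lay above every WT value for 3 of the 13 probe sets, against 17.5% of all, and below every WT value for another 3, against 17.2% of all. The median difference was -0.42 over the 13 probe sets and 0.01 over all, and without WT replicate 3 it was 0.17 and 0.01. Without that lung 3 of the 13 were higher and 2 lower (4.19% and 4.31% of all), the additional one being Atf3. Both TG values then lay above the 3 WT values for 5 probe sets and below them for 3 (20.5% and 19.8% of all). Read at 1 probe set a gene, Egr2 was higher and Jun and Dusp1 were lower, of 10 genes (8.43% of all 18193 genes were higher and 10.5% lower).

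These calls rested on few arrays. Without TG replicate 1, TG replicate 2 or WT replicate 1, 0 of the 13 probe sets passed in limma, though in each case 2 were higher and 2 lower at an unadjusted p under 0.05. The shares of all probe sets that passed were then 3.68%, 5.07% and 7.39%. Without WT replicate 2, Dusp1 and Jun 1448694_at passed as lower (10.8% of all passed), and without WT replicate 4, Dusp1 did (11.3%). Under other settings of the fit 2 passed with robust moderation (11.4% of all) and 0 without moderation (3.6%). Without WT replicates 2 and 4, 2 passed (8.06%). With the replicate number as a block, a fit with only 1 residual degree of freedom, 9 passed (14.1%). With array weights and with quantile normalization again 3 passed (12.6% and 10.8% of all).

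**Figure D2:**
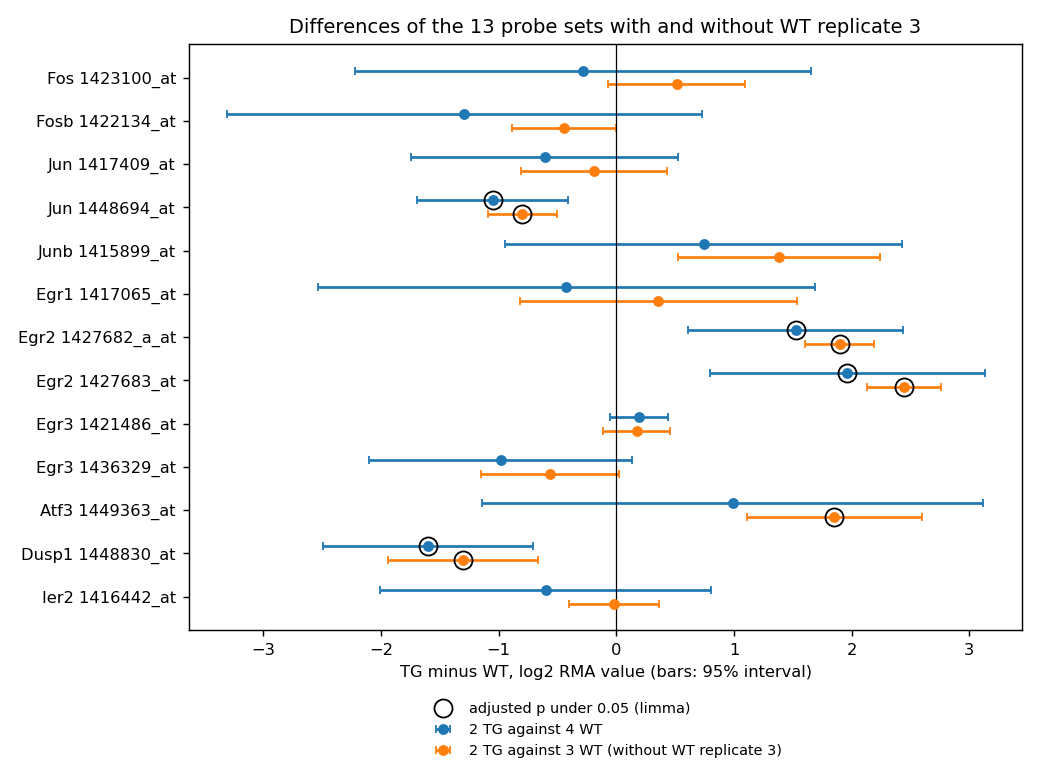
TG minus WT difference of each probe set in log2 units with its 95% interval from limma, over all 6 arrays (blue) and without WT replicate 3 (orange); rings mark an adjusted p under 0.05. Leaving out WT replicate 3 moves every point except Egr3 1421486_at to the right and shortens every interval except that of the same probe set, and only Atf3 gains a call.

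Fos encodes the founding AP-1 subunit. Its probe set 1423100_at read 10.58 and 9.77 in TG lungs, and 9.82, 9.39, 12.85 and 9.77 in WT replicates 1 to 4. TG replicate 1 lay above 3 WT lungs and TG replicate 2 among them, and WT replicate 3 was 9.11-fold above the mean of the other WT lungs. The difference was -0.28 ± 0.85 (SE, n = 2 and 4; limma adjusted p = 0.88), and without WT replicate 3 it was 0.51 ± 0.25 (adjusted p = 0.27). Neither passed, and the sign of the Fos difference turned with that lung and without TG replicate 2 (0.12).

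Fosb, a Fos relative that also pairs with Jun proteins, was at the floor in TG lungs at 3.92 and 3.86, against 4.55, 4.48, 7.71 and 3.97 in WT lungs. Both TG values were below every WT value, but WT replicate 4 was only just above them. The difference of -1.29 ± 0.89 did not pass (adjusted p = 0.42), nor did that of -0.45 ± 0.19 without WT replicate 3 (adjusted p = 0.21). At such low signals a fold change is compressed, and 3 of the WT values lay within 0.7 log2 units of the TG mean.

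Jun encodes the partner of the Fos proteins and was read by 2 probe sets that differed in their result. Probe set 1448694_at was 9.36 and 9.34 in TG lungs and 10.18, 10.03, 11.15 and 10.22 in WT lungs, and all WT lungs were above both TG lungs. The difference was -1.05 ± 0.28 (adjusted p = 0.048), and -0.80 ± 0.13 without WT replicate 3 (adjusted p = 0.0097). The call ended without TG replicate 1 (adjusted p = 0.22), TG replicate 2 (0.20), WT replicate 1 (0.075) or WT replicate 4 (0.059). Probe set 1417409_at was 9.04 and 9.20 in TG lungs and 9.17, 9.87, 10.995 and 8.88 in WT lungs, so that the groups overlapped. Its difference of -0.61 ± 0.50 did not pass (adjusted p = 0.51), and was -0.19 ± 0.27 without WT replicate 3. Both probe sets are annotated to the same RefSeq transcript.

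Junb, another Jun protein, which can hold back Jun in some dimers, read 9.04 and 8.17 in TG lungs, against 6.98, 6.77, 9.79 and 7.92 in WT lungs. Both TG lungs were above 3 of the WT lungs and below WT replicate 3. The difference was 0.74 ± 0.74 (adjusted p = 0.60) with all lungs and 1.38 ± 0.37 (adjusted p = 0.062) without WT replicate 3. The TG lungs themselves were 0.87 log2 units apart.

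Egr1, the zinc finger factor that is a classical target of serum response elements, read 10.72 and 8.93 in TG lungs and 9.53, 8.88, 12.59 and 9.99 in WT lungs. The TG lungs differed from each other by 1.79 log2 units, the widest gap between them among the 13 probe sets. The difference of -0.42 ± 0.92 had a 95% interval of -2.53 to 1.69, so neither a 4-fold fall nor a 3-fold rise lay outside it. Without WT replicate 3 it was 0.36 ± 0.51 (adjusted p = 0.74).

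Egr2, a relative of Egr1 known from myelinating Schwann cells and from lymphocyte and macrophage activation, had both TG lungs above all WT lungs in both probe sets. Probe set 1427683_at read 8.23 and 8.37 in TG lungs, against 5.81, 6.00, 7.79 and 5.75 in WT lungs. WT replicate 3 came closest to the TG lungs, and the other WT lungs lay at least 2 log2 units below them. The difference was 1.96 ± 0.51, or 3.9-fold (adjusted p = 0.043), and 2.45 ± 0.14, or 5.45-fold, without WT replicate 3 (adjusted p = 9.8e-05). Probe set 1427682_a_at read 7.44 and 7.59 in TG lungs and 5.65, 5.64, 7.12 and 5.55 in WT lungs. Its difference was 1.52 ± 0.40 (adjusted p = 0.045) and 1.90 ± 0.13 without WT replicate 3 (adjusted p = 0.00019). Both probe sets are annotated to the same source sequence and are no independent measurements. The calls of both ended without any other single array, at adjusted p between 0.072 and 0.21, with differences of 1.77 to 2.03 for 1427683_at and 1.38 to 1.601 for 1427682_a_at. Read at 1 probe set a gene, Egr2 still passed without WT replicate 2. In the authors' deposited table the q-values of Egr2 were 0.088 and 0.096, the lowest of the 13 probe sets.

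The 2 probe sets of Egr3, which shares the zinc finger class with Egr1 and Egr2, did not follow each other. Probe set 1436329_at read 4.89 and 4.28 in TG lungs and 5.46, 5.24, 6.84 and 4.75 in WT lungs, again with WT replicate 3 on top. Its difference was -0.98 ± 0.49 (adjusted p = 0.26), and -0.56 ± 0.25 without WT replicate 3. Probe set 1421486_at was 5.98 and 5.89 in TG lungs and 5.84, 5.73, 5.68 and 5.71 in WT lungs. It was the 1 probe set of the 13 in which WT replicate 3 was not the highest WT lung, and its range over the WT lungs was 0.16 log2 units. Its difference was 0.19 ± 0.11 (adjusted p = 0.32), and 0.17 without WT replicate 3 (adjusted p = 0.46).

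Atf3, a stress-induced factor of the ATF/CREB family that can pair with Jun, read 8.43 and 8.50 in TG lungs, against 7.18, 6.73, 10.06 and 5.93 in WT lungs. The TG lungs agreed within 0.071 log2 units, and lay above 3 WT lungs and below WT replicate 3. With all lungs the difference was 0.99 ± 0.93, or 1.99-fold, and did not pass (adjusted p = 0.57). Without WT replicate 3 it was 1.85 ± 0.32, or 3.61-fold, and passed (adjusted p = 0.014). Whether Atf3 is called thus rests on 1 WT lung.

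Dusp1, the nuclear phosphatase that inactivates p38, JNK and ERK, read 10.97 and 10.74 in TG lungs, against 12.68, 12.15, 13.35 and 11.65 in WT lungs. All 4 WT lungs were above both TG lungs. The difference was -1.60 ± 0.39, so that the WT level was 3.04-fold the TG level (adjusted p = 0.033), and -1.30 ± 0.27 without WT replicate 3 (adjusted p = 0.028). With all 6 arrays Dusp1 and Egr2 had the largest differences of the 13 probe sets, while without WT replicate 3 those of Atf3 and Junb exceeded that of Dusp1. The call of Dusp1 ended without TG replicate 1 (adjusted p = 0.16), TG replicate 2 (0.19) or WT replicate 1 (0.083), while the difference stayed between -1.87 and -1.30 over the 6 settings that leave out 1 array. The authors' deposited table gave a q-value of 0.19 for Dusp1.

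Ier2, a nuclear protein named for its immediate early induction, read 8.96 and 8.53 in TG lungs and 8.72, 8.89, 11.09 and 8.67 in WT lungs. Apart from WT replicate 3 all lungs lay within 0.5 log2 units of each other. The difference of -0.60 ± 0.62 was -0.02 ± 0.16 without that lung, with a 95% interval of -0.40 to 0.36, and neither passed (adjusted p = 0.61 and 0.96).

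The spread of these genes among WT lungs was wide for their level. The SD over the 4 WT lungs ran from 0.072 (Egr3 1421486_at) to 1.80 (Atf3), with a median of 0.97, where the median over all probe sets was 0.16. Against the probe sets whose mean lay within 0.5 log2 units of its own, 12 of the 13 had an SD above the 95th percentile. Atf3 stood at percentile 99.98, Fosb at 99.97 and Egr1 at 99.94. Without WT replicate 3 the median SD was 0.32, and 5 of the 13 remained above the 95th percentile, namely Atf3, Junb, Egr1, Dusp1 and Jun 1417409_at. The height of WT replicate 3 over the mean of the other WT lungs was 10.9-fold for Atf3, 10.4-fold for Fosb, 8.73-fold for Egr1, 5.91-fold for Junb and 5.005-fold for Ier2. It was smallest, among the 12 probe sets with WT replicate 3 on top, for Jun 1448694_at at 2.01-fold and Dusp1 at 2.28-fold. At the low end WT replicate 4 was the lowest WT lung in 8 of the 13 probe sets. The share of all probe sets in which it was lowest was not computed, so this count is a description only.

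The same lung was high in some other immediate early genes. Of 45 further immediate early genes, read at 1 probe set a gene, WT replicate 3 was the highest WT lung in 17 and at least 1 log2 unit above the others in 5, where 19.8% and 0.104% of all 18193 genes were. These 5, named after their values were seen, were Nr4a1, Ccn1, Zfp36, Btg2 and Plk2. Nr4a1, an orphan nuclear receptor, was 8.80 and 7.63 in TG lungs and 8.54, 8.36, 11.56 and 7.82 in WT lungs. Ccn1, a matricellular protein under the control of serum response factor and YAP, was 10.74 and 9.34 in TG lungs and 10.31, 9.68, 12.75 and 10.49 in WT lungs. The genotype difference of neither passed (adjusted p = 0.58 and 0.54). In the lists of other AP-1 genes, of MAP kinase phosphatases and feedback inhibitors, of upstream factors and kinases, of heat shock genes and of stress response genes, 0 genes had WT replicate 3 at least 1 log2 unit above the other WT lungs. In 0 of the 15 lists of cell type markers did any gene lie that far above. At a share of 0.104% of all genes, a count of 0 is usual for lists of this size. These counts of 0 therefore say little about what sets this lung apart. Of the marker lists, neutrophils (5 of 7 genes measured) had WT replicate 3 farthest above the mean of the other WT lungs, by their median. That median was 0.74 log2 units, and WT replicate 3 was the highest WT lung for 2 of the 5 genes. Their mean level was 7.28 in WT replicate 3 and 7.14 in WT replicate 4, against 6.59 and 6.52 in WT replicates 1 and 2.

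**Figure D3:**
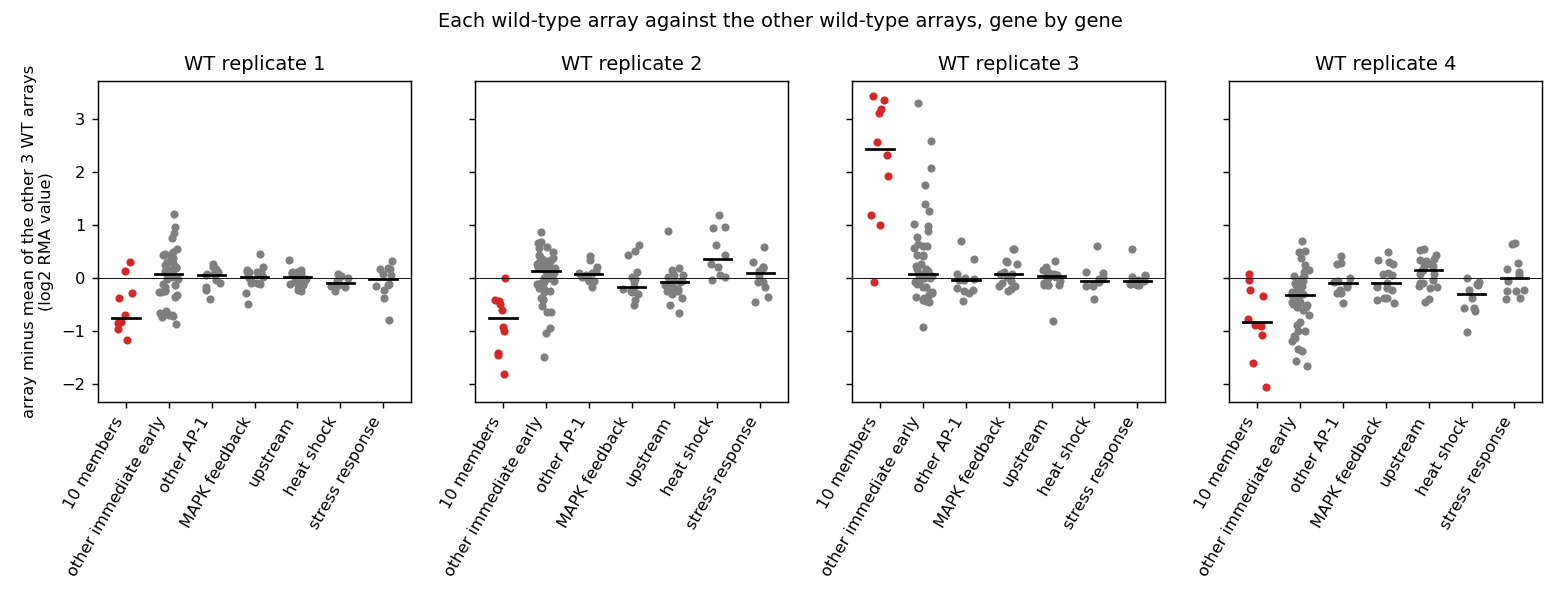
Each panel is 1 WT lung, and each point is 1 gene of the list on the x axis, plotted as the log2 RMA value of that lung minus the mean of the other 3 WT lungs; bars are medians and the 10 members are red. The members have a median of 2.44 in WT replicate 3, where the other 6 lists have medians between -0.06 and 0.08.

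Across genotypes the further immediate early genes moved both ways. Of the 45, 6 were higher and 6 lower in TG lungs and 33 did not pass (8.43% and 10.5% of all 18193 genes were higher and lower). Their median difference was -0.21, where that of all genes was -0.005. Without WT replicate 3, 8 were higher and 6 lower (6.58% and 7.77% of all genes). Without TG replicate 1 the counts were 4 and 3 (3.99% and 3.19% of all genes), and without TG replicate 2 they were 4 and 4 (4.95% and 4.73%). Without WT replicate 4 they were 6 and 11 (8.68% and 10.8%). The shares of all genes called were 6.26% and 6.82% without WT replicate 1 and 8.21% and 11.1% without WT replicate 2, which also apply to the lists below. The kinase gene Pim1 led the rises at 10.22 and 10.06 in TG lungs, against 7.60, 8.11, 8.84 and 7.88 in WT lungs, a difference of 2.03 ± 0.30 (adjusted p = 0.0025). The clock and hypoxia regulator Bhlhe40 was higher by 1.78 ± 0.28, the STAT feedback inhibitor Socs3 by 1.48 ± 0.27 and the repressor Nfil3 by 1.26 ± 0.21. Pim1 and Socs3 are known targets of STAT signalling. The 6 genes that fell, named after their values were seen, were Per1, Klf2, Ccn2, Klf9, Klf4 and Klf6, at differences of -1.19 to -0.72. Klf10, the remaining Krüppel-like factor of the list, had a difference of 0.01 (adjusted p = 0.99).

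**Figure D4:**
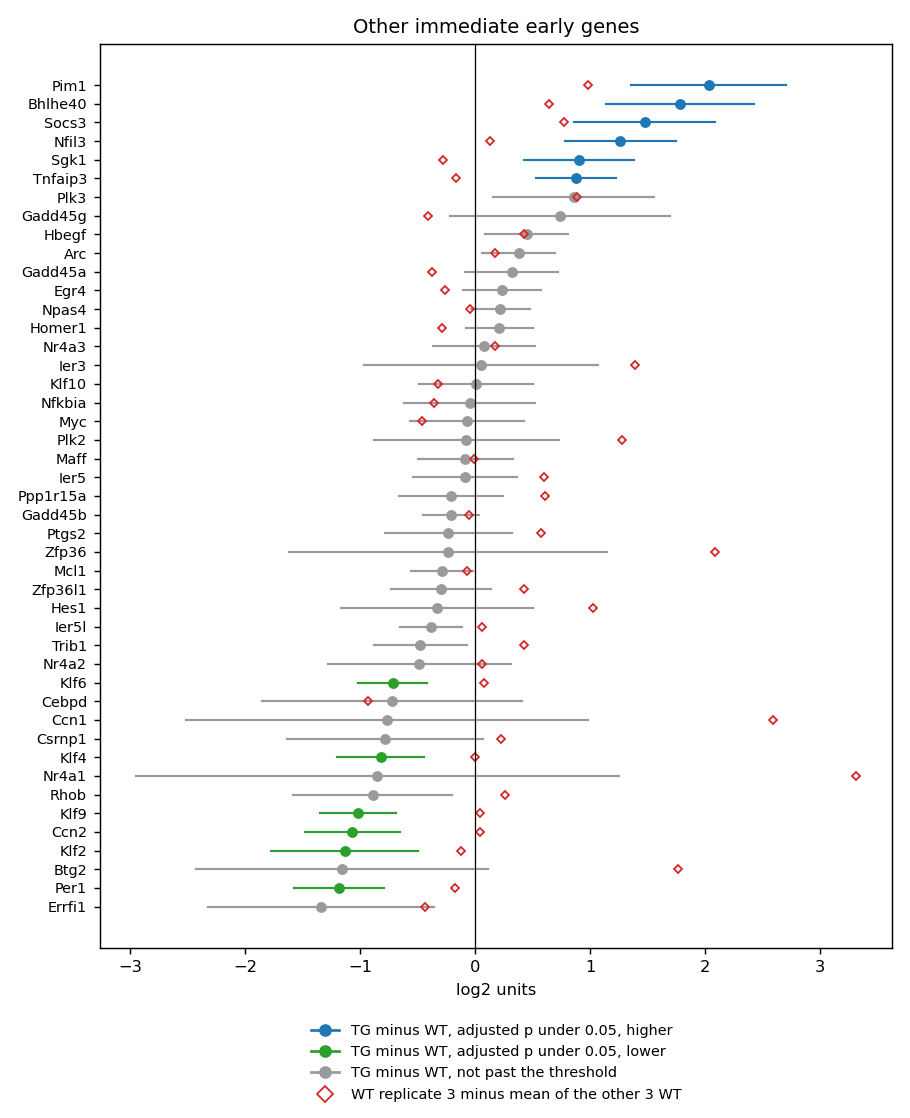
TG minus WT difference of 45 further immediate early genes in log2 units (circles, with 95% intervals from limma; blue higher and green lower at an adjusted p under 0.05), and the value of WT replicate 3 minus the mean of the other 3 WT lungs (red diamonds). The genes with the highest diamonds, Nr4a1 at 3.32 and Ccn1 at 2.59, have wide intervals that span 0.

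Among other AP-1 and dimer partner genes, Batf3 and Batf were higher; their proteins pair with Jun in lymphocytes and dendritic cells. Among 12 of them on the array 2 were higher, 2 were lower and 8 did not pass, with a median of 0.03 (8.43% of all genes were higher and 10.5% lower). Batf3 was 8.65 and 8.29 in TG lungs, against 5.86, 6.14, 5.66 and 6.30 in WT lungs, and was higher by 2.48 ± 0.19 (adjusted p = 9.3e-05). Batf was higher by 1.06 ± 0.11 (adjusted p = 0.00059), and the difference of Batf2 was 0.08 (adjusted p = 0.79). The repressor Jdp2 fell by 0.59 (SE 0.11) and the small Maf protein gene Mafk by 0.51 (SE 0.13). Lower genes numbered 0 without TG replicate 1, 1 without TG replicate 2, WT replicate 1 or WT replicate 3, and 3 without WT replicate 4.

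Some MAP kinase phosphatases and Ras-ERK feedback inhibitors were lower, as Dusp1 was. Of 15 such genes 5 were lower, 0 were higher and 10 did not pass, with a median difference of -0.31. Of all genes 10.5% were lower and 8.43% higher. Those that did not pass, named after their values were seen, included Dusp6 (-0.41, limma adjusted p = 0.21), Dusp4 (-0.38, 0.21), Spry4 (-0.31, 0.21) and Dusp5 (0.29, 0.32). Spry2 read 7.09 and 7.16 in TG lungs, against 8.17, 7.92, 7.93 and 8.31 in WT lungs, and fell by 0.96 (SE 0.14, adjusted p = 0.0026). Spry1 and the phosphatase gene Dusp7 each fell by 0.83 (SE 0.15 and 0.20), and Spred2 by 0.58 (SE 0.12). WT replicate 3 was within the range of the other WT lungs for Spry2, Dusp7 and Spred2, and 4 of the genes fell without it. Lower genes numbered 1 without TG replicate 1 and 3 without WT replicate 1.

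Changes in the factors and kinases upstream were small. Of 21 such genes 3 were lower, 0 were higher and 18 did not pass, with a median difference of -0.14. Of all genes 10.5% were lower and 8.43% higher, so the count of lower genes was near that share. Serum response factor, Srf, was 6.85 and 6.77 in TG lungs and 7.47, 7.50, 7.55 and 7.05 in WT lungs, a fall by 0.59 (SE 0.16, adjusted p = 0.032). Elk4, a partner of Srf on the serum response element, fell by 0.52 (SE 0.14) and Creb1, the factor of the cyclic AMP response element, by 0.48 (SE 0.12). All 3 calls ended without TG replicate 1, TG replicate 2 or WT replicate 3, where the counts were 0, and without WT replicate 1 the count was 1.

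Of 10 heat shock genes 1 rose and 1 fell (8.43% and 10.5% of all genes), Hspe1 by 0.42 ± 0.11 and Hspb1 by -0.98 ± 0.24. The median difference was -0.03. The rise count was 0 without TG replicate 1, TG replicate 2, WT replicate 1 or WT replicate 3 and 4 without WT replicate 2, and the fall count was 0 without TG replicate 2. Of 12 genes of the integrated stress response, to which Atf3 also belongs, 3 rose, 1 fell and 8 did not pass, with a median of 0.31. The same shares of all genes apply. The serine and asparagine synthesis genes Psat1 (0.995 ± 0.12), Phgdh (0.61 ± 0.12) and Asns (0.36 ± 0.10) rose, and Vldlr fell by 1.35 (SE 0.12). Higher genes numbered 1 without either TG replicate, and 2 without WT replicate 1, 2 or 3.

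Among 10225 genes with a mean of at least 6 that are not members, the 5 whose profile over the 6 arrays was most like the mean of the 8 members above that level were Elac2, Plk2, H3f3b, Srrt and Zfp36. Pearson's r with that mean was 0.992 for Elac2, 0.963 for Plk2, 0.957 for H3f3b, 0.947 for Srrt and 0.937 for Zfp36, as a description over 6 arrays dominated by WT replicate 3. The sizes differed: WT replicate 3 was above the mean of the other WT lungs by 2.93 log2 units for H3f3b, a histone gene, but by 0.11 for Elac2. Plk2 and Zfp36 are themselves known as immediate early genes and were in the list above.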

How the data were processed

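The deposited log2 RMA values (45037 probe sets, 6 arrays) were used as they stand. The authors made them with RMA, per the submitters' processing notes, which give no version. RMA shares a quantile normalization across arrays, so levels are relative to the array's distribution. The authors' table of comparisons gives a log2 difference and a q-value per probe set, per the file headers; how the q-value was made was not found in these sources, and 0 of the 13 probe sets had one under 0.05 (846 of all did). Its 6 columns of single arrays were left aside, since no sample label matches their names.

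Symbols came from the platform annotation (34945 probe sets with 1 symbol, 932 with several, 9160 with none) and were updated through Entrez IDs for 34741 probe sets. The fit of TG against WT used limma 3.58.1 (R 4.3.3; lmFit, then eBayes; 4 residual degrees of freedom) over all probe sets, with Benjamini-Hochberg adjustment and a threshold of 0.05. Gene lists were read over 18193 genes in a separate fit, each gene at its brightest probe set. SEs and 95% intervals are limma's moderated ones. Where 1 TG array is left out, the other is assumed to vary like the WT arrays. Promoter windows are from RefSeq, GRCm38.p6. Python 3.11.15 with matplotlib 3.10.9 drew the figures. The limma step was tested on simulated data.

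The members and gene lists were chosen with earlier results of these data known. Named were all member probe sets and, of each list, up to 4 called genes with the largest differences, other names being marked as chosen after their values were seen. Alternatives were other normalizations, filters, moderation settings, array weights, leaving out arrays, and a block on replicate numbers. Markers of 15 cell types were used only to describe the samples.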

Additional observations from a re-analysis of the deposited data

Results flagged for a closer look

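Within the 4 WT lungs, a value was picked out where its gap to the nearest other WT lung, divided by the range of the 4, exceeded Dixon's 95% critical value for 4 values. Chance does so in about 1 of 20 groups, and 51 probe sets or genes were examined. Some of these were named because WT replicate 3 was high in them or for their likeness to the members, so that rate is no yardstick for the set. The member probe sets were read in the same lungs, so their flags are not separate events. WT replicate 3 was picked out as the highest WT lung for 5 member probe sets, at a ratio of 0.875 for Fos, 0.844 for Fosb, 0.934 for Egr2 1427682_a_at, 0.876 for Egr2 1427683_at and 0.907 for Ier2. Jun 1448694_at, at 0.8288, lay just under the critical value. Over all probe sets WT replicate 3 was picked out as the highest in 0.591%, and the other WT lungs in 0.608% to 0.773%. WT replicate 3 was also picked out for Elac2 (0.863) and H3f3b (0.855). These were named for their likeness to a member profile dominated by that lung, so their flags add nothing. WT replicate 4 was picked out as the lowest WT lung for Mafk (0.886) and Srf (0.843) and as the highest for Phgdh (0.8995).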

How the results depend on the processing

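Median centring, both filters on low values, an intensity trend and symbols as annotated moved no call of the 13 probe sets; the filters left 11 and 10 of them. Over the settings that leave out 1 array, 0 to 3 member probe sets were higher and 0 to 2 lower, and 0 to 2 member genes were higher and 0 to 2 lower in limma. The share of all probe sets or genes at an unadjusted p under 0.05 was not computed, so the unadjusted counts below have no yardstick. Without moderation 0 were higher and 0 lower for probe sets and genes alike (1 and 1 unadjusted). With robust moderation 0 probe sets and 0 genes were higher (2 and 1 unadjusted), with array weights 1 probe set, and without WT replicates 2 and 4, 0 probe sets and 0 genes (2 and 1 unadjusted). Quantile normalization again left 1 lower probe set, and the mean of all probe sets of a gene left 1 lower gene. Leaving out 1 array, the difference ran from -0.69 to 0.51 for Fos and from -1.32 to 0.47 for Egr1, turning sign for Fos without TG replicate 2 (0.12) or WT replicate 3, and for Egr1 without TG replicate 2 or WT replicate 3 (0.36); the sign also turned for Atf3 without WT replicates 2 and 4 (-0.16). With the replicate number as a block, 5 probe sets were higher and 4 lower, 4 genes were higher, and Fos (0.57) and Egr1 (0.62) turned sign. WT replicates 3 and 4 have no partner there, so the block compares with WT replicates 1 and 2 only. That fit has 1 residual degree of freedom, so its counts are not on a par with those of the other settings. No label ties the numbers to a shared litter, batch or day. The deviations of same-numbered arrays correlated at -0.11 and 0.24, but with 2 TG arrays these deviations mirror each other, so the pairing could not be tested. The reading of a gene from 1 or all probe sets does not apply to counts of probe sets. The 2 TG arrays and low signals (Fosb, Egr3) limit what could be called.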

Other observations

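Among the 63 probe sets in which WT replicate 3 exceeded every other WT lung by at least 1 log2 unit, 10 were of members, 7 of 5 further immediate early genes, 26 of 26 genes in none of the lists, and 20 carried no symbol. Of the 20 with the largest gap, 7 were of members. Read at the brightest probe set of each gene, 19 of all 18193 genes had such a gap. Of these genes, 7 were members and 5 were further immediate early genes. Most of the 26 genes in none of the lists thus showed it only on a probe set that was not their brightest. The genes named here were chosen after their values were seen. The cytokine gene Il1b (1449399_a_at) read 8.73 and 7.87 in TG lungs and 6.38, 6.60, 9.07 and 6.45 in WT lungs. The histone gene H3f3b (1430357_at) read 7.02 and 5.60 in TG lungs and 5.16, 5.46, 8.34 and 5.62 in WT lungs. The nuclear long non-coding RNA Malat1 (1436202_at) read 9.58 and 8.45 in TG lungs and 8.17, 8.04, 10.997 and 9.56 in WT lungs. Thbs1, a matrix protein that serum induces in cultured cells, read 6.57 and 6.15 in TG lungs and 6.01, 6.15, 7.58 and 5.84 in WT lungs.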
